A study of Mus musculus with 2 samples.

Results

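DNA replication and mitosis genes were followed through the epithelium of the mouse cervix in 2 single-cell libraries. The set holds 34 genes, chosen by symbol from the 31053 genes of the files, and each symbol matched 1 Ensembl identifier. Its 15 S-phase genes run from Mcm2 to Dut in the list and act in licensing, DNA synthesis and nucleotide supply. Its 19 mitotic genes, from Mki67 to Kif11, act in chromosome condensation, spindle assembly and mitotic exit. The UMIs (unique molecular identifiers, each standing for 1 captured transcript) of each list were summed per cell, per epithelial layer and per library.

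The cells came from ovariectomised C57BL6/129 female mice aged 7 to 8 weeks that recovered for 2 weeks after surgery and were followed over 15 days. Ovariectomy, which both groups share, removes the main source of estrogen and progesterone. The control mice were left untreated. The progesterone mice were injected under the skin with estradiol (E2) in corn oil, 100 µg per day for 2 days, and then carried a 25 mg pellet releasing about 1 mg of progesterone per day. Cervices of 9 mice were pooled per group and gave 1 library each. There are no replicates, so no test between the groups was possible, and the estradiol, the injections, the pellet and the progesterone cannot be told apart. Intervals in square brackets are exact 95% intervals that cover counting error only.

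A dividing cell first loads the MCM helicase onto replication origins, then copies its DNA in S phase, and then condenses and separates its chromosomes in mitosis. Genes of the first steps are switched on by E2F factors around the start of S phase, while many mitotic genes are held down until G2 by complexes that bind a promoter element called CHR beside CCAAT boxes. Most cell division in a stratified squamous epithelium takes place in its basal layer, from which cells move up, stop dividing and differentiate.

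The promoters of the members show these elements to different degrees, and 5 are printed below as examples of them. RefSeq promoter windows of 300 bases (250 before to 50 after the gene start, build GRCm38.p6) were matched for 29 of 34 members. Ccna2, Gins2, Mcm4, Tpx2 and Aurkb were not matched. The motifs were searched on both strands as TTTGAA (the core of CHR), CCAAT (the NF-Y box) and TTTNNCGC (an E2F-type site), and each was counted on its own, also where matches overlap. TTTGAA was found in 11 of 16 mitotic members, in 1 of 13 S-phase members (Mcm2) and in 20.2% of all 27018 genes in the table. CCAAT was found in 14 of 16, in 9 of 13 and in 41.1%. TTTNNCGC was found in 1 of 16 mitotic members (Cdk1), in 7 of 13 S-phase members and in 5.93% of all genes. A match is a run of letters and not a measured binding site. The examples were taken by their ratio in basal cells: Cdc6 and Mcm5 had the largest differences among S-phase members with a TTTNNCGC match in the printed stretch, and Mki67 had the largest and Cdk1 the smallest among mitotic members with both CCAAT and TTTGAA there, with Ccnb2 between them. Other members hold more matches, such as Mcm6 with 3 of TTTNNCGC and Top2a with 6 of CCAAT. Each line gives the longest exon-free stretch before the RefSeq start of that window, 5′ to 3′ on the gene's strand, with the matches in capitals. The Cdc6 stretch lies inside the Ensembl span of that gene, which begins at chr11:98907801.
Cdc6 (chr11:98907982-98908150, plus strand): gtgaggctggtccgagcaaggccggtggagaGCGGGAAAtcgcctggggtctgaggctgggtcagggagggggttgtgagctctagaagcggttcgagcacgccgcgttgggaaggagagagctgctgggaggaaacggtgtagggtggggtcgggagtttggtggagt
Mcm5 (chr8:75109259-75109508, plus strand): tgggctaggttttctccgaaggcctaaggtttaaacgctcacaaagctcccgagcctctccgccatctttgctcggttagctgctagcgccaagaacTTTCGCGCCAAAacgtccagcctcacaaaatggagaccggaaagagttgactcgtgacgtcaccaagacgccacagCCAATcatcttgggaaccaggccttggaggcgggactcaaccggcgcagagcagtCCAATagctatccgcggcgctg
Mki67 (chr7:135716380-135716629, minus strand): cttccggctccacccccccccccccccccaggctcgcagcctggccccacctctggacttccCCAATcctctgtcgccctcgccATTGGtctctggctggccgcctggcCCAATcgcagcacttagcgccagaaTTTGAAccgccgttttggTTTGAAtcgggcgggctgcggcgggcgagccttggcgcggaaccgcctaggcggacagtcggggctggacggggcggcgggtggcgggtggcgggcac
Ccnb2 (chr9:70421555-70421804, minus strand): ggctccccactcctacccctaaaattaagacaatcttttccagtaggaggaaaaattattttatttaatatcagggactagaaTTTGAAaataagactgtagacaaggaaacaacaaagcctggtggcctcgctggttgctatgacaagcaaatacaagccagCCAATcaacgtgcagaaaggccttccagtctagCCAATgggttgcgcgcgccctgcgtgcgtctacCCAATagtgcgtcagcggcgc
Cdk1 (chr10:69352939-69353162, minus strand): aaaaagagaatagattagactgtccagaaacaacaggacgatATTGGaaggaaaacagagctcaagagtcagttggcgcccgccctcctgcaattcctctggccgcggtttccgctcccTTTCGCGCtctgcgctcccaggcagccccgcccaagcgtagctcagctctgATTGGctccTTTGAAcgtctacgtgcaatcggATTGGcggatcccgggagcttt
Cdc6 carries a single E2F-type match, and Mcm5 carries a pair that overlap on opposite strands, with its CCAAT boxes nearer to the gene start. Mki67 has TTTGAA at 2 places below its CCAAT boxes. Ccnb2 has CCAAT boxes 87, 54 and 21 bases before its start. Cdk1 was the only mitotic member among the 16 with all 3 motifs.

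The control library held 21658684 UMIs and gave 4579 analysed cells with a median of 3733 UMIs, and the progesterone library held 44811069 UMIs and gave 8541 cells with a median of 4151. Cell classes were named from fixed markers, with the members and other cell cycle genes left out of the clustering, and are written as X-like. Basal squamous-like cells (1152 control, 2826 progesterone) read the basal keratin Krt5 at 5972 and 2564 CPM (UMIs scaled to 1000000 UMIs of the class) and Krt10, a keratin of upper layers, at 9.02 and 23.9 CPM. Suprabasal squamous-like cells (1097 and 424) read Krt10 at 471 and 1240.4 CPM and Krt13, another upper keratin, at 1682 and 3812 CPM, against 224 and 111 CPM in basal cells. Krt5 and Krt14, the keratins of the basal layer, did not set the layers apart. Suprabasal cells read Krt5 at 5653 and 6089.6 CPM and Krt14 at 31540 and 11312 CPM, against 20608 and 6007 CPM of Krt14 in basal cells. Trp63, the transcription factor of basal cells, was at 181 and 241 CPM in basal and at 81.1 and 82.9 CPM in suprabasal cells. A further squamous cluster, number 3 (103 and 1180 cells), scored about alike for both layers and is called layer open. Luminal-like cells (222 and 1876), the columnar lining, read Krt8 at 3088 and 878 CPM and Krt18 at 2903 and 2388 CPM. The control luminal-like cells also read squamous keratins, with Krt13 at 5013 CPM, Krt5 at 2702 CPM and Krt14 at 2498 CPM, against 1287, 529 and 207 CPM in the progesterone ones. The control value of Krt13 was above that of control suprabasal cells, and the part of squamous RNA in these values was not tested. Different clusters hold most of a class in each library: cluster 6 has 693 of the control basal cells and clusters 9 and 4 have 1655 and 1082 of the progesterone ones. Likewise cluster 13 has 210 of the control luminal-like cells, and clusters 23 and 10 have 923 and 898 of the progesterone ones. In each library 19 deposited barcodes were shared with the other one.

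Replication and mitosis transcripts were most abundant in basal squamous-like cells of the control library, and among the epithelial classes the libraries differed most there. The S-phase sum was 1079 CPM [1051 to 1107] in control basal cells and 483 CPM in progesterone ones, a level 2.23-fold lower [2.15 to 2.31]. The mitotic sum was 1501 CPM [1468 to 1535] and 411 CPM, which is 3.66-fold lower [3.53 to 3.79]. Suprabasal cells stood far below basal cells in the control library, with 279.6 CPM of S-phase and 331 CPM of mitotic transcripts. Their progesterone values, 247 and 277 CPM, were nearer to those of the control library (1.13-fold [1.04 to 1.23] and 1.20-fold [1.11 to 1.29] lower). The basal level was thus 4.54 times the suprabasal one for mitotic genes in control [4.33 to 4.76] and 1.48 times [1.38 to 1.59] with progesterone. For S-phase genes these ratios were 3.86 [3.66 to 4.07] and 1.96 [1.82 to 2.11]. A single suprabasal cell held 186 of the 2219 mitotic UMIs in control, and 1 held 166 of the 901 in progesterone. The suprabasal mitotic values lean on these cells, and their intervals are narrower than the true error. The order of layers was the same in both libraries for S-phase genes, basal above layer open above suprabasal, while in progesterone the mitotic levels of basal and layer-open cells (411 and 397 CPM) differed by no more than counting error, with a ratio of 1.03 [0.987 to 1.08].

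**Figure D1:**
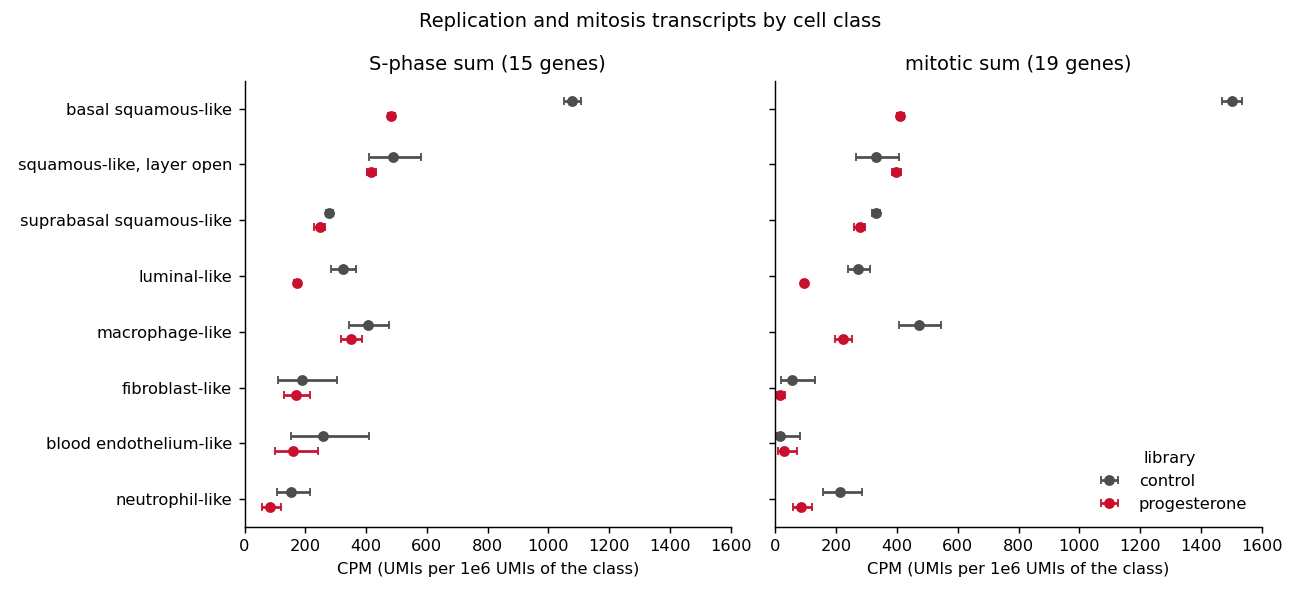
Summed S-phase (left) and mitotic (right) transcripts in CPM for 8 cell classes, with control in grey and progesterone in red; bars are exact Poisson 95% intervals for counting error. Control basal squamous-like cells stand apart at 1079 and 1501 CPM, and fibroblast-like cells read mitotic transcripts at 55.8 and 15.1 CPM.

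In basal cells as a whole mitotic transcripts were lower by a larger factor than S-phase transcripts. They held 1.39 mitotic UMIs per S-phase UMI [1.34 to 1.44] in control and 0.850 [0.820 to 0.881] with progesterone. In suprabasal cells the ratio was 1.18 [1.11 to 1.26] and 1.12 [1.02 to 1.23], and these intervals overlap. In the layer-open cluster the ratio went the other way, from 0.674 [0.508 to 0.892] in control to 0.952 [0.903 to 1.003] with progesterone. The order of the factors also turned within basal cluster 6, which held 92.8% of the mitotic UMIs of control basal cells: its mitotic sum was 1.28-fold and its S-phase sum 1.64-fold lower.

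All 34 members passed the minimum of 20 UMIs in basal cells, and all 34 were at least 1.5-fold lower in the progesterone library. Of the 11759 genes tested in basal cells, 17.1% were lower by that factor and 20.5% were higher. The median log2 ratio of progesterone over control was -1.13 over the S-phase members, -1.93 over the mitotic members and 0.02 over all genes tested. With mitochondrial, ribosomal protein and the 20 most abundant genes left out of the scaling, which shifts every basal ratio by 0.22, 30 of the 34 were at least 1.5-fold lower, and Dut, Cdk1, Gins2 and Pcna were not. The share over all genes is not given for that scaling.

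The MCM2-7 helicase, which unwinds DNA ahead of the fork, was lower in all of its subunits. Mcm5 was read at 91.2 CPM in control and 29.6 CPM in progesterone basal cells, which is 3.08-fold lower [2.69 to 3.52]. Mcm7 was read at 122.4 and 59.0 CPM, 2.07-fold lower [1.87 to 2.30], and Mcm2, the least changed subunit, at 26.9 and 14.8 CPM, 1.81-fold lower [1.45 to 2.26]. Cdc6, which loads the helicase, was a low-count gene at 8.06 CPM (42 UMIs) in control and 1.85 CPM (25 UMIs) in progesterone, 4.36-fold lower [2.60 to 7.47]. Gins2, a subunit of the GINS complex that turns the loaded helicase into an active one, was at 33.2 and 20.2 CPM, 1.64-fold lower [1.35 to 1.99]. The 2 factors of the sliding clamp differed from each other. Pcna, the clamp itself, was 1.74-fold lower [1.49 to 2.02], at 56.4 and 32.5 CPM. Pclaf, the small protein that binds it, was the S-phase member with the largest difference, at 126.1 and 28.8 CPM, 4.38-fold lower [3.86 to 4.97].

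Among the enzymes of nucleotide supply the difference ranged from 1.51-fold to 2.70-fold. Rrm1, the large subunit of ribonucleotide reductase, was at 99.6 and 36.9 CPM (2.70-fold lower [2.38 to 3.05]), and its small subunit Rrm2 was at 30.5 and 12.5 CPM (2.44-fold lower). Thymidylate synthase Tyms was at 120.7 and 55.3 CPM, and thymidine kinase Tk1 at 46.4 and 25.9 CPM. Dut, which removes dUTP so that uracil is not built into DNA, had the smallest difference of all members, at 135.5 CPM in control and 89.8 CPM in progesterone (1.51-fold lower [1.37 to 1.66]). Dut thus lay at the 1.5-fold line itself, and Cdk1 and Gins2 lay close to it.

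The mitotic cyclins included the member with the largest difference. Ccnb1, the cyclin that drives entry into mitosis, was read at 64.5 CPM in control and 8.50 CPM in progesterone basal cells, a ratio of 0.132 (7.59-fold lower [6.12 to 9.46]). Its relative Ccnb2 was at 40.9 and 11.4 CPM (3.59-fold lower [2.91 to 4.45]), and Ccna2, the cyclin of S phase and G2, at 34.9 and 6.43 CPM (5.43-fold lower [4.19 to 7.10]). Their kinase partner Cdk1 did not follow them in size, with 27.8 and 17.7 CPM (1.58-fold lower [1.27 to 1.95]).

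Of the mitotic kinases, Plk1, which acts at centrosomes and kinetochores, was at 33.2 and 5.39 CPM (6.16-fold lower [4.66 to 8.21]). Bub1, a kinase of the spindle checkpoint, was at 14.4 and 2.44 CPM (5.90-fold lower [3.87 to 9.18]). Aurka, the kinase of spindle poles, was 4.08-fold lower. Aurkb, the kinase of the chromosomal passenger complex, was 2.47-fold lower [1.68 to 3.62], at 10.7 and 4.36 CPM. Birc5 (survivin), a partner of Aurkb in that complex, was at 141.6 and 27.8 CPM, 5.10-fold lower [4.50 to 5.79].

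Spindle, chromosome and exit genes lay between these. Mki67, the marker protein that coats mitotic chromosomes, was at 243 and 58.7 CPM (4.14-fold lower [3.78 to 4.53]), and the DNA topoisomerase Top2a was at 230.3 and 67.7 CPM (3.40-fold lower). The kinetochore proteins Cenpf and Cenpe were 3.04-fold and 3.15-fold lower. Tpx2, which builds microtubules around chromosomes, was 3.81-fold lower, Prc1, which bundles the midzone, 3.12-fold, the spindle motor Kif11 2.60-fold and the microtubule binder Nusap1 2.50-fold. Ube2c and Cdc20, which work with the anaphase-promoting complex to end mitosis, were 3.94-fold and 3.84-fold lower.

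**Figure D2:**
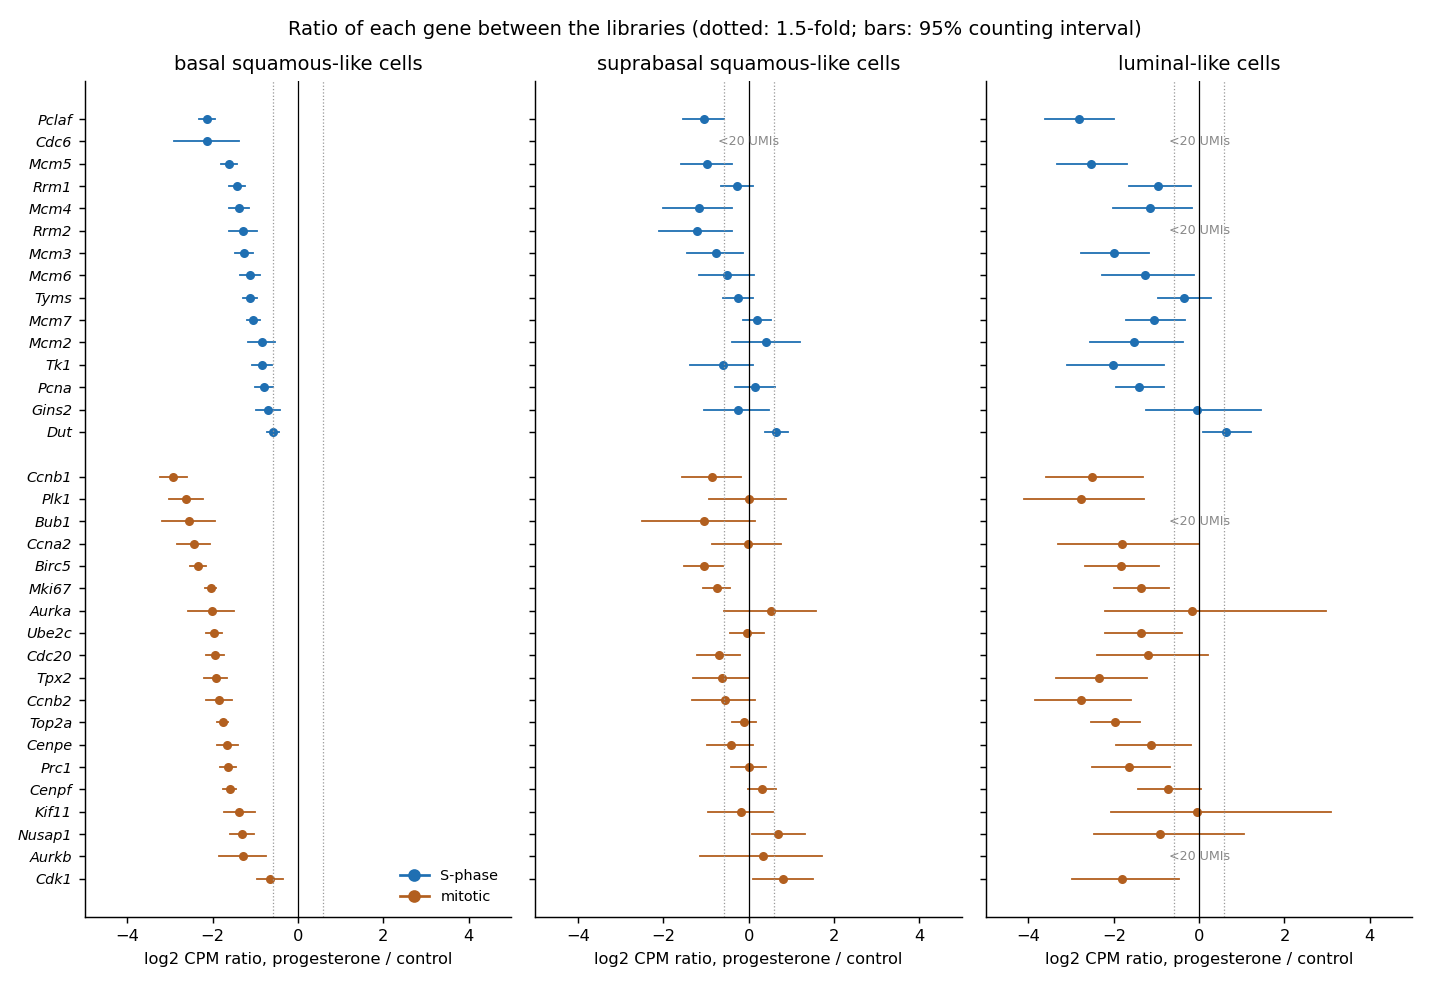
log2 ratio of progesterone over control CPM for each member in basal (left), suprabasal (middle) and luminal-like cells (right), with S-phase genes in blue, mitotic genes in brown and 95% counting intervals as bars. All 34 points lie below -0.58 (1.5-fold lower) in basal cells, from Ccnb1 at -2.92 to Dut at -0.59. Suprabasal points lie on both sides of 0, with medians of -0.39 (S-phase) and -0.10 (mitotic).

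Fewer basal cells carried these transcripts in the progesterone library, and the cells that did held no fewer mitotic UMIs than control cells. Each cell was thinned to 2000 UMIs, which left out 337 control and 159 progesterone basal cells of lower depth. At least 2 S-phase UMIs were then found in 344 of 815 control basal cells, or 42.2% [38.8 to 45.7], and in 442 of 2667 progesterone ones, or 16.6% [15.2 to 18.0]. Without thinning the shares were 48.6% and 34.5%. At least 2 mitotic UMIs were found in 256 control basal cells, or 31.4% [28.2 to 34.7], and in 150 progesterone ones, or 5.62% [4.78 to 6.57]. Without thinning these were 31.7% and 8.32%. Cells with both were 20.2% and 3.34%. The basal cells called for mitotic UMIs held a mean of 7.41 thinned mitotic UMIs in control and 8.77 in progesterone, or 3866 and 4511 CPM before thinning. For S-phase UMIs the called cells held a mean of 4.00 and 3.22. Mitotic UMIs were gathered in few cells: 80.4% of them in control and 78.4% in progesterone lay in cells with at least 5. S-phase UMIs were spread more widely, with 46.4% and 23.9% of them in such cells.

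**Figure D3:**
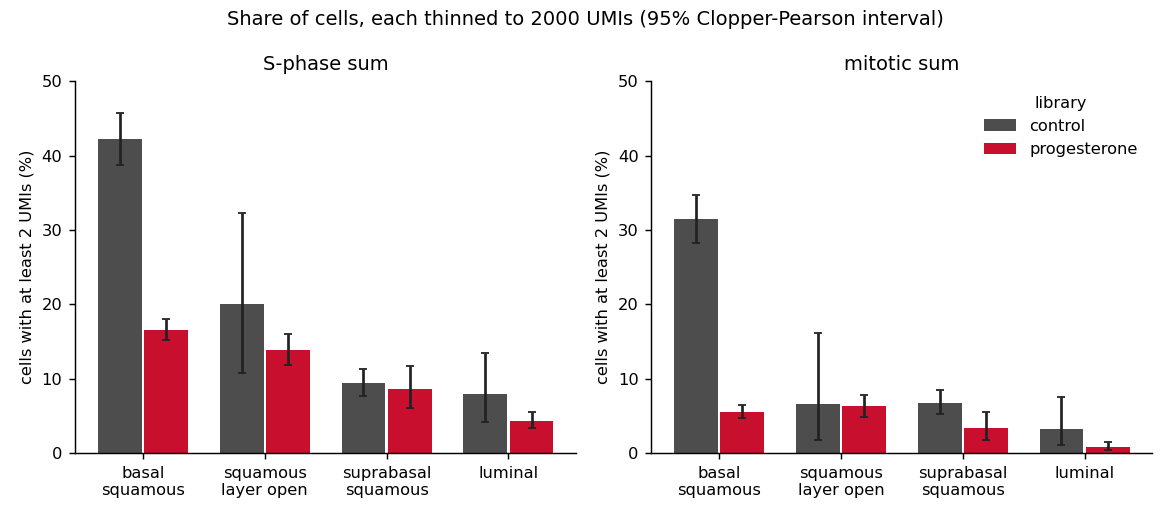
Share of cells with at least 2 S-phase (left) or mitotic (right) UMIs after thinning each cell to 2000 UMIs, for 4 epithelial classes and both libraries; bars start at 0 and carry Clopper-Pearson 95% intervals. Basal cells stand at 42.2% and 16.6% for S-phase and at 31.4% and 5.62% for mitotic genes, and the intervals of the 2 libraries do not meet there.

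Cells with mitotic UMIs were deeper than the rest and richer in histone transcripts that the lists do not contain. Squamous-like cells with at least 2 thinned mitotic UMIs had a median of 6982.5 UMIs in control and 6852 in progesterone, against 5078 and 4937 in cells under 2 of either sum. Their histone (Hist genes) level was 2967 and 3643 CPM, against 291 and 260.4 CPM. Squamous-like cells with at least 2 S-phase but under 2 mitotic UMIs read histones at 683 CPM in control. In progesterone such cells read 238 CPM, no higher than cells under 2 of either sum, which limits what the S-phase call means there. Krt16, a keratin of activated and upper squamous cells, was at 1181 CPM in control cells with at least 2 mitotic UMIs. It was at 6707 CPM in control cells under 2 of either sum. In the progesterone library Krt16 was at 23.2 and 24.7 CPM. Other keratins did differ there between cells with at least 2 mitotic UMIs and cells under 2 of either sum. Krt10 was at 99.6 and 238 CPM, Krt13 at 685 and 1224 CPM and Krt6a at 288 and 587 CPM. Krt1 and Krt4 differed little, at 6.64 and 7.48 CPM and at 13.3 and 16.9 CPM. Of the control cells called for mitotic UMIs 78.5% [73.7 to 82.9] were basal and 20.2% suprabasal, while basal cells made up 44.0% of squamous-like cells at that depth. In the progesterone library 64.1% [57.6 to 70.2] were basal, 29.9% layer open and 5.98% suprabasal, close to the 63.6%, 26.5% and 9.92% of all squamous-like cells there.

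The make-up of each list in the cells that carried it also differed. Among basal cells with at least 2 mitotic UMIs, Ccnb1 gave 4.34% [3.88 to 4.84] of mitotic UMIs in control and 2.27% [1.87 to 2.72] in progesterone. Plk1 gave 2.34% and 1.42%, and Birc5 9.12% and 7.05%. Cdk1 went the other way, with 1.79% and 3.83% [3.31 to 4.40], and so did Nusap1 (2.82% and 4.17%), Cenpf (10.8% and 13.0%) and Kif11 (1.66% and 2.47%). For the other 12 mitotic members the intervals of the 2 libraries overlapped. Among basal cells with at least 2 S-phase UMIs, Pclaf gave 12.0% and 8.40% of the list, and Mcm5 and Rrm1 were also lower in progesterone. Dut gave 12.0% and 15.1%, Tk1 gave 4.43% and 6.22%, and the other 10 members had overlapping intervals. UMIs of 1 cell are not independent, so these intervals are narrower than the true error.

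**Figure D4:**
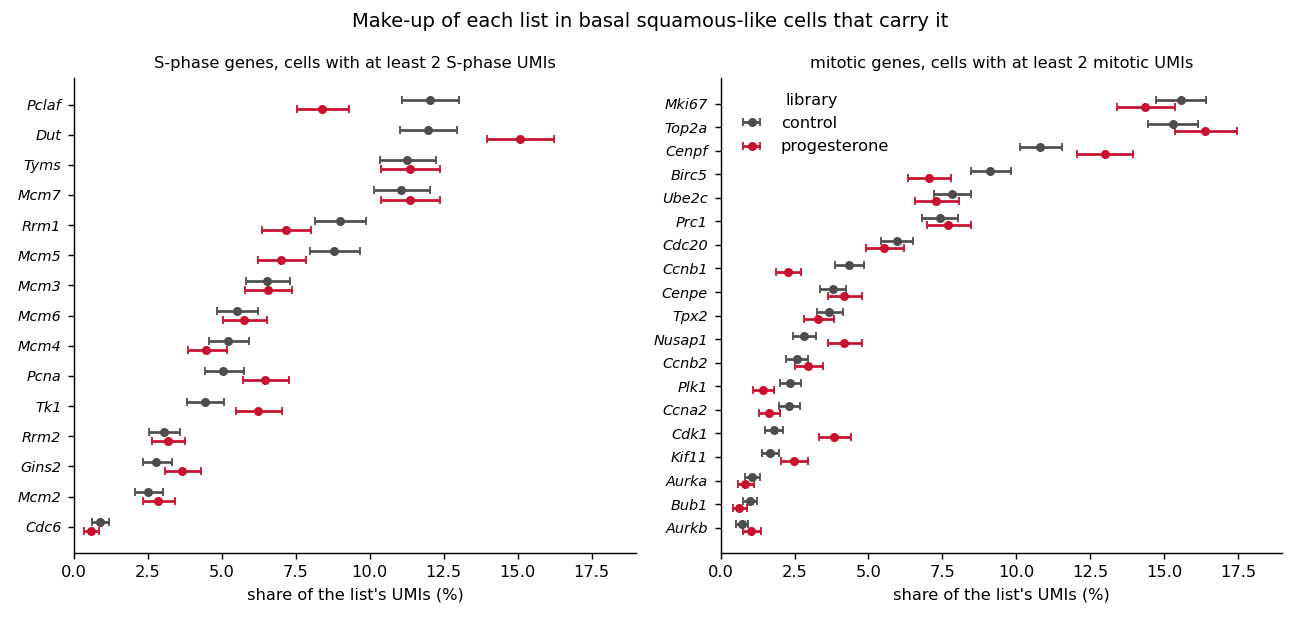
Share of each list's UMIs (%) given by each member in basal squamous-like cells with at least 2 UMIs of that list, S-phase genes at left and mitotic genes at right, control in grey and progesterone in red, with Clopper-Pearson 95% intervals. Ccnb1 lies at 4.34% and 2.27% and Cdk1 at 1.79% and 3.83%.

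The basal difference was not the same in every cluster. Cluster 6, with 693 control and 39 progesterone cells, held 92.8% of control basal mitotic UMIs and 89.8% of S-phase UMIs. Its levels were 1693 CPM of mitotic and 1177 CPM of S-phase transcripts in control. Its 39 progesterone cells read 1322 and 718 CPM, 1.28-fold [1.16 to 1.42] and 1.64-fold [1.43 to 1.89] lower. In cluster 9, with 113 control and 1655 progesterone cells, the mitotic sum was 1308 and 460 CPM, 2.84-fold lower [2.57 to 3.14]. Its S-phase sum was 1047 and 506 CPM, 2.07-fold lower [1.85 to 2.30]. In cluster 4 both sums were higher with progesterone: mitotic at 199.0 and 284 CPM (1.43 times [1.18 to 1.75]) and S-phase at 369.9 and 439 CPM (1.19 times [1.03 to 1.37]). The control cells of cluster 4 had a median of 1294 UMIs against 4304.5 in progesterone, and the part of depth in this was not tested. Without cluster 6 the basal log2 ratios were -0.38 (S-phase) and -0.65 (mitotic) in place of -1.16 and -1.87.

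**Figure D5:**
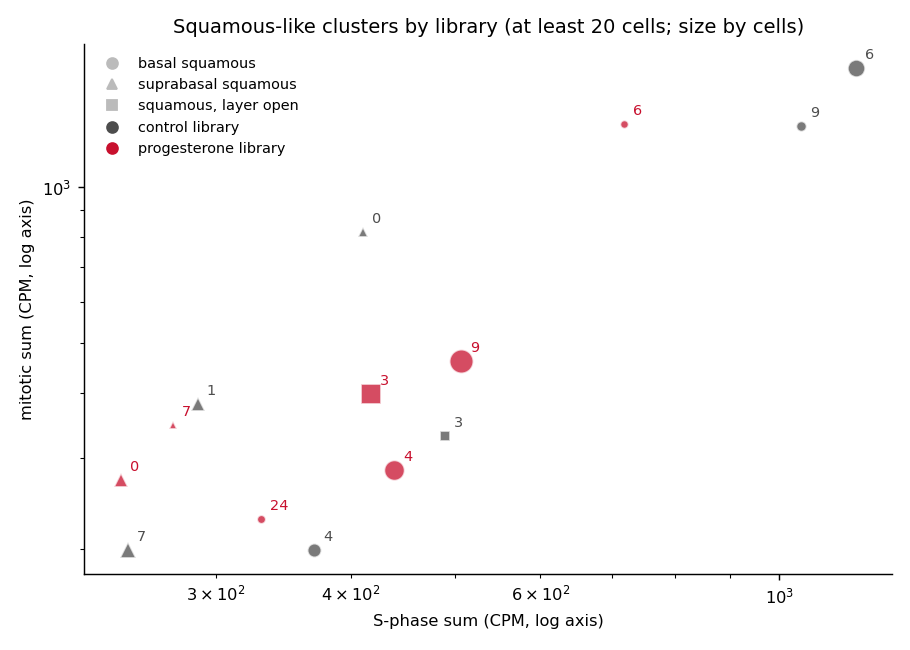
Mitotic against S-phase sum in CPM (both log axes) for squamous-like clusters with at least 20 cells, control in grey and progesterone in red, symbol by layer, size by number of cells, labelled by cluster number. Control clusters 6 and 9 lie at the upper right, at 1693 and 1308 CPM of mitotic transcripts, and the large progesterone clusters 9, 3 and 4 lie between 284 and 460 CPM.

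Depth also moved with the sums. Basal cells under 2000 UMIs read 255 and 257 CPM of S-phase and 120.2 and 155 CPM of mitotic transcripts in the 2 libraries. At 4000 to 8000 UMIs basal cells read 1090 CPM of mitotic transcripts in control and 273 CPM in progesterone, and above 8000 they read 2794 and 1430 CPM, so the control level was the higher one in both of these ranges.

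In suprabasal cells the members lay on both sides, with more of them lower than higher. Their median log2 ratio was -0.39 (S-phase) and -0.10 (mitotic), against 0.13 over all genes tested. Of 14 S-phase members with at least 20 UMIs, 6 were at least 1.5-fold lower and 1 was higher, and of 19 mitotic members 6 were lower and 2 higher. All genes of that class gave 11.5% lower and 21.3% higher. Rrm2 was the furthest lower S-phase member, at 10.6 and 4.61 CPM (2.30-fold lower [1.30 to 4.32]), followed by Mcm4 and Pclaf. Dut was higher with progesterone, at 38.3 and 60.2 CPM (1.57 times [1.30 to 1.90]). Among mitotic members Bub1 rested on 30 and 7 UMIs (2.08-fold lower [0.90 to 5.61]), and Birc5 was at 31.8 and 15.4 CPM (2.07-fold lower [1.51 to 2.87]). Cdk1 was at 5.96 and 10.4 CPM (1.75 times [1.08 to 2.84]) and Nusap1 at 7.75 and 12.6 CPM (1.62 times [1.05 to 2.49]). Plk1 and Prc1 had ratios of 1.00. Suprabasal cells with at least 2 thinned mitotic UMIs were 66 of 979 in control, 6.74% [5.25 to 8.50], and 14 of 416 in progesterone, 3.37% [1.85 to 5.58]. For S-phase UMIs the shares were 9.40% and 8.65%. Without thinning the mitotic shares were 10.3% and 6.60%, and the S-phase shares 24.9% and 35.1%. Clusters 7 and 1 hold 640 and 380 of the control suprabasal cells and cluster 0 holds 388 of the progesterone ones. Within cluster 0 the sums were 1.68-fold (S-phase) and 3.01-fold (mitotic) lower with progesterone. Within cluster 7, with only 36 progesterone cells, they were 1.10 [0.844 to 1.41] and 1.74 [1.37 to 2.19] times the control level. The share of cluster 7 cells with at least 2 thinned mitotic UMIs went the other way, at 4.29% of 583 control and 2.86% of 35 progesterone cells. The class value thus pools clusters that differ, and the direction within cluster 7 is not settled. The direction of the suprabasal sums turned with the clustering: with the libraries clustered apart the log2 ratios were 0.68 and 0.44 in place of -0.18 and -0.26.

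The layer-open cluster read S-phase transcripts at 489 and 417 CPM (1.17-fold lower [0.975 to 1.40]) and mitotic ones at 330.1 and 397 CPM (1.20 times [0.973 to 1.51]). Neither difference is beyond counting error, and only 103 control cells stand behind it. In squamous-like cells as a whole, 7 of 15 S-phase and 16 of 19 mitotic members were at least 1.5-fold lower, against 12.7% of 12613 genes, and 24.6% of those genes were higher. The sums were 626 and 432 CPM (S-phase, 1.45-fold lower [1.41 to 1.49]) and 832 and 388 CPM (mitotic, 2.14-fold lower [2.08 to 2.20]). Without cluster 6 the squamous log2 ratios turned to 0.39 and 0.05. An unnamed cluster, number 11, with 212 control and 874 progesterone cells of low depth (medians of 904 and 1354 UMIs), had Ube2c among its leading genes and read mitotic transcripts at 891 and 455 CPM. Its sums were 1.44-fold (S-phase) and 1.96-fold (mitotic) lower with progesterone, and adding the unnamed squamous clusters left the squamous ratios at -0.54 and -1.09.

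Luminal-like cells read both sums below basal cells of the same library. In control their S-phase sum was above the 279.6 CPM of suprabasal cells. The luminal S-phase sum was 324 and 173 CPM (1.88-fold lower [1.63 to 2.14]), and the mitotic sum 273 and 94.6 CPM (2.89-fold lower [2.47 to 3.36]). In control 1 cell held 71 of the 210 luminal mitotic UMIs, and in progesterone 1 cell held 354 of the 861. UMIs of 1 cell are not independent, so this mitotic interval is narrower than the true error. Other cell types did not share 1 level of mitotic transcripts. Neutrophil-like cells, the shallowest of these (median depths of 581 and 776 UMIs), read them at 213 and 85.3 CPM. These rest on 47 and 34 UMIs, with up to 20 and 8 in 1 cell. Fibroblast-like cells read them at 55.8 and 15.1 CPM, on 5 and 6 UMIs, and blood endothelium-like cells at 14.4 and 27.9 CPM, on 1 and 4 UMIs. Macrophage-like cells read them at 471 and 222 CPM, 2.12-fold lower [1.75 to 2.57] with progesterone. Erythrocyte-like cells read them at 774 and 287 CPM (2.70-fold lower [2.16 to 3.36]), but 116 of their 136 control UMIs lay in 1 cell. Lower mitotic sums were thus not confined to the epithelium. The luminal mitotic level was 1.28 times the neutrophil one [0.930 to 1.80] in control and 1.11 times [0.787 to 1.61] in progesterone, at deeper medians of 2691 and 4742 UMIs. The S-phase level was 2.10 times [1.46 to 3.10] and 2.02 times [1.44 to 2.93] the neutrophil one. No level of free RNA for luminal-like cells can be taken from these values, and its part was not tested. Of 13 S-phase members tested in luminal-like cells 10 were lower and 1 higher, and of 17 mitotic ones 15 were lower, against 16.2% lower and 24.6% higher over all genes. These counts rest on 2 to 35 control UMIs per member. Pclaf was at 28.6 and 4.06 CPM (7.04-fold lower [3.96 to 12.3]) and Mcm5 at 26.0 and 4.50 CPM (5.78-fold lower [3.21 to 10.1]). Dut was again the exception, at 37.7 and 58.1 CPM (1.54 times [1.06 to 2.32]). At least 2 thinned mitotic UMIs were found in 5 of 151 control cells and in 14 of 1589 progesterone ones, 3.31% [1.08 to 7.56] and 0.881% [0.482 to 1.47], and in 7.21% and 2.08% without thinning. These few cells held a mean of 7.00 and 7.86 thinned mitotic UMIs and at most 14 and 36. Their histone level was 5517 and 1426 CPM, against 344 and 224 CPM in luminal-like cells under 2 of either sum. The 14 progesterone cells also read more basal RNA than those cells, with Krt14 at 769 against 189 CPM, Krt5 at 854 against 519 CPM and Trp63 at 56.3 against 8.88 CPM. The 5 control cells did not for Krt14 (71.7 against 2618 CPM) and were near for Krt5 (2747 against 2615 CPM). The part of basal RNA in these cells was not tested. The luminal direction did not hold under all alternatives: with the unnamed luminal clusters added the log2 ratios were 0.27 (S-phase) and 0.55 (mitotic) in place of -0.91 and -1.53.

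To set the shares beside those of neutrophil-like cells, which do not divide, each cell was also thinned to 500 UMIs and counted with 1 UMI or more, a choice made after seeing that few neutrophil-like cells reach 2000. Mitotic UMIs were then found in 5.51% of control and 3.16% of progesterone neutrophil-like cells (median depths of 581 and 776 UMIs). Basal cells stood at 21.2% [18.9 to 23.7] and 6.09% [5.23 to 7.03] (median depths of 4008 and 4493.5). Suprabasal cells stood at 7.47% [5.99 to 9.19] and 3.77% [2.17 to 6.06], and luminal-like cells at 5.41% [2.82 to 9.25] and 1.81% [1.26 to 2.52], at or near the neutrophil shares. For S-phase UMIs the neutrophil shares were 6.09% and 3.16%, the basal ones 26.5% and 15.9%, the suprabasal ones 9.66% and 11.1% and the luminal ones 8.56% and 7.89%. The neutrophil mitotic level was itself 2.50-fold lower [1.57 to 4.01] in the progesterone library. That difference rests on 47 and 34 UMIs. A single control cell held 20 of the 47, so the control level and the ratios to it lean on that cell. Basal cells read 7.04 times the neutrophil level [5.29 to 9.59] in control and 4.81 times [3.44 to 6.95] in progesterone, and the part of free RNA in the epithelial differences was not tested.

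Genes of the same pathways outside the set were mostly lower in basal cells too. Of 16 further origin licensing genes 10 were at least 1.5-fold lower and 0 higher, with Dbf4, the activator of the Cdc7 kinase, at 31.3 and 9.83 CPM. Of 30 polymerase and fork genes 23 were lower and 0 higher, with the fork protein Clspn at 48.7 and 14.8 CPM. Of 20 kinetochore and checkpoint genes 19 were lower, with Spc24 of the NDC80 complex at 104.8 and 21.3 CPM. Of 20 spindle and cytokinesis genes 18 were lower, with the chromokinesin Kif4 at 28.0 and 6.50 CPM. Of 15 chromatin and condensation genes 13 were lower, with the histone variant gene H2afz at 1188 and 456 CPM. Of 20 further G2 and M regulators 19 were lower, with Cdkn3 at 50.3 and 7.76 CPM. None of these lists had a member at least 1.5-fold higher. As for the set, 17.1% of all basal genes were lower by that factor.

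Regulators of the G1 phase were more mixed. Of 19 G1 cyclin and E2F genes tested 8 (42.1%) were lower and 2 (10.5%) higher, against 17.1% and 20.5% of all basal genes. Their median log2 ratio was -0.46, against 0.02 over all genes. Ccnd2, a D-type cyclin that drives cells out of G1, was higher with progesterone at 506 CPM against 130.1 CPM (3.89 times [3.59 to 4.21]), and E2f7, a repressor of E2F targets, was at 1.48 against 7.48 CPM (5.07-fold lower). Of 17 CDK inhibitor and RB family genes 3 (17.6%) were lower and 6 (35.3%) higher, with a median of 0.24. Cdkn1a, which encodes the inhibitor p21, was at 69.1 CPM in control and 10.1 CPM in progesterone basal cells (6.83-fold lower [5.59 to 8.37]). Cdkn1c, which encodes p57, was at 5.95 and 17.2 CPM (2.89 times [1.98 to 4.36]). In luminal-like cells the D-type cyclins split, with Ccnd1 at 134.0 and 281 CPM and Ccnd2 at 69.0 and 26.4 CPM.

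A search by gene name found processed pseudogenes of Ccnb1, Ccnb2, Tyms and Pcna, whose reads may not be separable by the counting used. Pseudogenes that do not carry a member's name were not searched for. The leading members lie at chr13:100778650-100786570 (Ccnb1, minus strand), chr9:65890237-65903266 (Pclaf, plus strand), chr10:69335146-69352938 (Cdk1, minus strand) and chr2:125247190-125258608 (Dut, plus strand) in GRCm38, and the 34 genes are spread over 15 chromosomes.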

How the data were processed

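Cells released with cold protease went into 10x Genomics 3′ libraries (chemistry 3.1) with a cDNA read of 90 bp, per the labels' protocols. The authors deposited raw whole-number UMI counts of each gene in each barcode, per the file headers, made with Cell Ranger 3.0.2 on the mm10 genome build, per the submitters' processing notes. Further settings are not given in the sources used here.

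The cell filter asked for 200 genes or more and no more than 20% mitochondrial UMIs, and Scrublet (scanpy 1.11.5) doublets were left out at 0.8% per 1000 cells (181 and 680 cells; 20 of 293 and 23 of 231 cells with at least 10 mitotic UMIs were among them). Cells of both libraries were clustered together on 2000 variable genes, 30 components and 15 neighbours with Leiden resolution 1, without the members, the other cell cycle lists, histone and mitochondrial genes. Clusters were named where the marker score was at least 0.75 with a lead of 0.5 and at least 3 detected markers, thresholds taken over from earlier work on these data, after clusters had been seen. Squamous clusters where basal and suprabasal scores tie are layer open, and 1266 control and 994 progesterone cells stayed unnamed.

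CPM are the UMIs of a gene or list in a class divided by all UMIs of that class in the library, times 1000000. Ratios have exact conditional binomial, levels exact Poisson and shares exact Clopper-Pearson 95% intervals, for counting error only. A gene with at least 20 UMIs was called at 1.5-fold. The calls and intervals were tried on simulated counts, drawn gene by gene from the counting model that the intervals assume. That draw holds no gathering of UMIs in single cells, so it cannot show how well the intervals cover the real data. The genes named are, per class and list, the members with the 3 largest and 2 smallest log2 ratios in size, and of each pathway list the gene furthest each way by the interval bound nearest 1; in basal cells the other members are given by role. Counts of 3′ UMIs are not per length, so levels are not compared between genes. The members and lists were chosen with earlier results of these data known.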

Additional observations from a re-analysis of the deposited data

Results flagged for a closer look

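Some sums stood on opposite sides of 0 in different layers or clusters, as log2 ratios of progesterone over control. None of these differences was tested, since each group is 1 library. The mitotic sum was -1.87 in basal, -0.26 in suprabasal and -1.53 in luminal-like cells, against 0.27 in the layer-open squamous cluster, whose interval reaches from 0.973 to 1.51 times. Within basal clusters, the S-phase sum was 0.25 in cluster 4, -0.71 in cluster 6 and -1.05 in cluster 9. The mitotic sum was 0.52, -0.36 and -1.51 in the same clusters. In cluster 4 the control median was 1294 UMIs per cell, and cluster 6 holds only 39 progesterone cells. The thinned shares of cluster 4 cells were higher in control, at 22.4% against 14.3% (S-phase) and 7.89% against 4.61% (mitotic), so its direction differed between the 2 measures.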

How the results depend on the processing

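Values are log2 ratios of progesterone over control, S-phase first and mitotic second where both are given. The basal sums were below 0 in all 13 alternatives, and the squamous sums in 13 of 14. The suprabasal sums were below 0 in 6 and 9 of 12 alternatives and the luminal ones in 7 and 8 of 12. No doublet removal gave -1.79 (basal mitotic), 0.16 and -0.13 (suprabasal), and -0.0329 and -0.18 (luminal). Leiden resolution 0.6 gave -1.10 and -1.66 (basal), 0.47 and 0.14 (suprabasal), -0.32 and -0.83 (squamous), and 0.0876 and -0.29 (luminal). Leiden resolution 2 gave -1.78 (basal mitotic), -0.42 and -0.37 (suprabasal), and -0.49 and -1.01 (squamous). With the libraries clustered apart the values were -1.76 (basal mitotic), 0.68 and 0.44 (suprabasal), -0.45 and -0.96 (squamous), and 0.23 and 0.10 (luminal). Cell cycle genes kept in the clustering gave -1.26 and -1.61 (basal), 0.39 and -1.15 (suprabasal), -0.94 (squamous mitotic), and -0.0487 and -1.12 (luminal). At most 10% mitochondrial UMIs gave -0.98 and -1.63 (basal), 0.25 and -0.10 (suprabasal), -0.31 and -0.88 (squamous), and 0.29 and 0.34 (luminal). Classes from marker ranks per cell gave -0.76 and -1.37 (basal), 1.34 and 1.40 (suprabasal), -0.33 and -0.93 (squamous), and 0.39 and 1.14 (luminal). Scaling without mitochondrial, ribosomal protein and the 20 most abundant genes shifted basal ratios by 0.22 and gave -0.94 and -1.66 (basal), and -0.38 and -0.94 (squamous). The mean of each cell's CPM gave -0.94 and -1.69 (basal), -0.59 (suprabasal mitotic), -0.47 (squamous S-phase) and -0.39 (luminal S-phase). Leaving out the most abundant S-phase member gave -1.26 (basal), -0.37 (suprabasal), -0.67 (squamous) and -1.32 (luminal).

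The next 3 alternatives were chosen after seeing the data. Clusters with at least 20 cells of each library gave -0.0490 (suprabasal mitotic), and -0.79 and -1.35 (squamous). Adding unnamed clusters gave 0.27 and 0.55 (luminal). Leaving out cluster 6 gave -0.38 and -0.65 (basal), and 0.39 and 0.0488 (squamous). The cause of these moves was not tested. Shares of basal cells with S-phase or mitotic UMIs were higher in control in 7 of 7 alternatives each, and those of suprabasal cells with S-phase UMIs in 2 of 7. Of the 34 basal members 28 were at least 2-fold lower, and 30 were at least 1.5-fold lower under the other scaling. With a minimum of 100 UMIs 33 were at least 1.5-fold lower, and Cdc6, on 42 and 25 UMIs, fell under that minimum. The share over all basal genes, 17.1% lower, is given only for the 1.5-fold rule with at least 20 UMIs, so these 3 counts have no background beside them. No paired analysis was possible because each group is 1 library with no replicate number in the labels.

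The low depth of control luminal-like cells (222 cells) and the 39 progesterone cells of cluster 6 limit those values, and cells of 1 pool say nothing of the spread between mice.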
